A study of Mus musculus with 18 samples.

Results

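The 10 genes described here encode the core regulators of mitochondrial biogenesis, and all 10 were found by symbol among the 55270 genes of the deposited table. They were measured by poly-A RNA sequencing in the substantia nigra of mice in 3 groups of 6 libraries, one library per mouse. Intact mice were wild-type animals for which the labels name no treatment. The AAV-GFP mice had received an adeno-associated virus (AAV) that carries GFP, a fluorescent protein, and the AAV-SIRT3 mice one that carries SIRT3, the NAD-dependent protein deacetylase of the mitochondrial matrix. The mice were 3 months old at dissection, roughly a month past injection in the virus groups, and the labels name neither the promoter that drives each transgene nor a sham injection for the intact mice. In such bulk tissue, fewer cells of a type and less RNA per cell cannot be told apart.

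The regulators act in a chain. PGC-1alpha (Ppargc1a) and PGC-1beta (Ppargc1b) are coactivators that do not bind DNA themselves but dock on transcription factors, mainly nuclear respiratory factor 1 (Nrf1), the GA-binding protein alpha subunit (Gabpa, also called NRF-2 alpha) and estrogen-related receptor alpha (Esrra). These factors switch on nuclear genes for respiratory chain subunits and for the proteins that serve mitochondrial DNA. TFAM (Tfam) packages that DNA and opens its promoters, the mitochondrial RNA polymerase (Polrmt) transcribes it together with TFB2M (Tfb2m), TFB1M (Tfb1m) methylates the small ribosomal RNA, and the catalytic subunit of DNA polymerase gamma (Polg) copies it. In brain, PGC-1alpha is abundant in parvalbumin-containing GABAergic neurons, and it is known for its role in the stress resistance of dopaminergic neurons.

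Between AAV-SIRT3 and AAV-GFP tissue limma called 0 of the 10 regulators changed, where 0.113% of all tested genes were called. Relative to intact tissue Ppargc1b fell by 26.4% in AAV-GFP and fell by 32.1% in AAV-SIRT3. Esrra was 17.6% higher in AAV-SIRT3 than in intact tissue. The fall in AAV-GFP was called in 23 of 34 alternative analyses, and the Esrra call was lost when the thalamic content of the libraries was fitted or the 3 intact libraries lowest in it were left out. That makes 1 of 10 called in AAV-GFP against intact, where 1.84% of all genes were called, and 2 of 10 in AAV-SIRT3 against intact, where 21.7% were. The other 8 regulators were called in no comparison, with differences of no more than 14.2%.

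Values are normalised read counts, the deposited reads per gene divided by one size factor per library. Libraries held 47182529 to 64728587 reads assigned to genes, and the regulators had between 248 and 5287 normalised reads in any one library. Tests were made with limma on log2(value + 1) over the 19443 genes that reached 10 or more in 6 or more libraries, and a gene is called changed at a Benjamini-Hochberg adjusted p under 0.05 over all of them. All 10 regulators passed the filter. The log2 fold changes below are on that log2(value + 1) scale.

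The tissue label was checked against cell type markers. The dopaminergic genes Th and Slc6a3 averaged 5729 and 11062 normalised reads in intact tissue, and none of the marker genes was at 0 in a whole group. The libraries differed, however, in markers of other cells, and the cause of these differences was not tested. Summed over 14 thalamic genes, markers ranged from 77982 to 145621 in intact libraries, with intact replicates 1, 3 and 5 lowest, against 124820 to 140434 in AAV-GFP and 114499 to 152741 in AAV-SIRT3. The microglial sum over 12 genes was 21968 to 24212 in intact libraries, 24216 to 31075 in AAV-GFP and 24815 to 29698 in AAV-SIRT3. Choroid plexus markers stood at 51220 in intact replicate 2 and 45269 in AAV-GFP replicate 5, against at most 5999 in any other library. Against intact tissue, 1.84% of all genes were called in AAV-GFP in either direction, and 1.02% were called lower. AAV-GFP had 6 of 12 microglial, 2 of 14 thalamic and 1 of 8 astrocyte markers called higher. It had 2 of 11 dopaminergic and 4 of 6 tested pituitary markers called lower. AAV-SIRT3, where 11.3% of all genes were called higher and 10.3% lower, had 8 of 12 microglial, 10 of 14 thalamic, 2 of 8 oligodendrocyte and 2 of 7 GABAergic markers called higher, 4 of 8 endothelial markers lower with 1 higher, 4 of 6 pituitary and 2 of 8 choroid plexus markers lower, and 1 of 8 pan-neuronal markers in each direction.

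Sirt3 itself checks the virus labels as far as its transcript can. It was 1733, 1823 and 1920 normalised reads (lowest, median and highest) in intact tissue, 1684, 1756 and 1936 in AAV-GFP, and 1801, 1953 and 2041 in AAV-SIRT3. The AAV-SIRT3 libraries lay highest as a group, but their range overlapped both others. The log2 fold change of AAV-SIRT3 over AAV-GFP was 0.13 (SE 0.042), with limma and Benjamini-Hochberg adjusted p = 0.183 and an exact two-sided permutation p = 0.0152, where the smallest possible is 0.00216. Without AAV-GFP replicate 2, the library with the highest Sirt3 of its group, it passed (0.15, adjusted p = 0.0390 by limma). Reads of a transgene whose sequence differs from mouse Sirt3 may not be counted here, and the labels do not give the transgene's sequence. Against intact tissue Sirt3 was at 0.09 in AAV-SIRT3 (adjusted p = 0.148 by limma, exact permutation p = 0.0325) and -0.04 in AAV-GFP (adjusted p = 0.656 by limma). The gene span of Sirt3, introns included, also shares 707 bases with that of Ric8a and 342 bases with that of Psmd13 on the other strand. Overlap of exons was not measured. Ric8a was at 0.13 and Psmd13 at 0.10 in AAV-SIRT3 over AAV-GFP (adjusted p = 0.157 and 0.388 by limma), and both were called higher in AAV-SIRT3 over intact (0.13 and 0.17, adjusted p = 0.0279 and 0.0302). Their part in the Sirt3 count was not tested, and whether the counting used strand is not given in the sources used here.

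The level of the regulators was compared per kilobase of exon, since long transcripts yield more reads. The length counts every annotated exon base of a gene once, over all its transcripts, so it can exceed that of the transcript expressed. Polg and Nrf1 had the greatest lengths of the regulators, 10742 and 10282 bases, and the order depends on this choice of length. Ppargc1a was highest, with 660 ± 65.1 normalised reads per kilobase (SD, n = 18 libraries), which put it above 79.5% of the tested genes with a known length. Esrra followed with 587 ± 53.3, Tfam with 483 ± 28.7 and Tfb2m with 395 ± 22.4. Polrmt stood at 320 ± 16.1, Gabpa at 277 ± 27.3 and Polg at 225 ± 6.23 reads per kilobase. Tfb1m (91.1 ± 9.00), Ppargc1b (85.6 ± 18.9) and Nrf1 (82.4 ± 5.57) were lowest, above 37.7% to 39.1% of those tested genes. The coactivator pair was thus unequal in this tissue, with PGC-1alpha transcripts well above those of PGC-1beta per length.

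**Figure D1:**
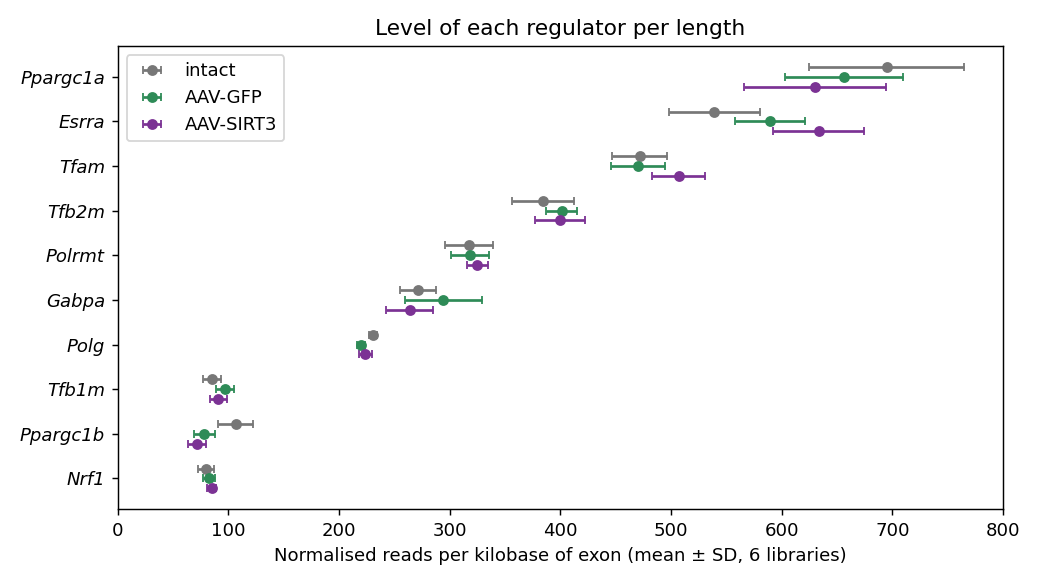
Mean level of each regulator in normalised reads per kilobase of exon, with SD over 6 libraries, in intact (grey), AAV-GFP (green) and AAV-SIRT3 (purple) tissue. Ppargc1a and Esrra led, at 660 and 587 over all libraries, and Tfb1m, Ppargc1b and Nrf1 lay together between 82.4 and 91.1.

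Neighbours in that order were not all separable. Tfam was above Tfb2m, Tfb2m above Polrmt and Polg above Tfb1m in 18 of 18 libraries with ranges that did not overlap. Ppargc1a was above Esrra in 14 of 18 libraries, and in AAV-SIRT3 tissue their order was the other way round on the mean, at 630 for Ppargc1a and 633 for Esrra. Tfb1m, Ppargc1b and Nrf1 overlapped throughout, and Ppargc1b ranked 8th of the 10 in intact tissue but 10th in both virus groups. Individual steadiness also differed. Polg varied least, with a coefficient of variation of 1.58% to 2.58% within groups, and Ppargc1b most, with 11.4% to 14.5%.

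**Figure D2:**
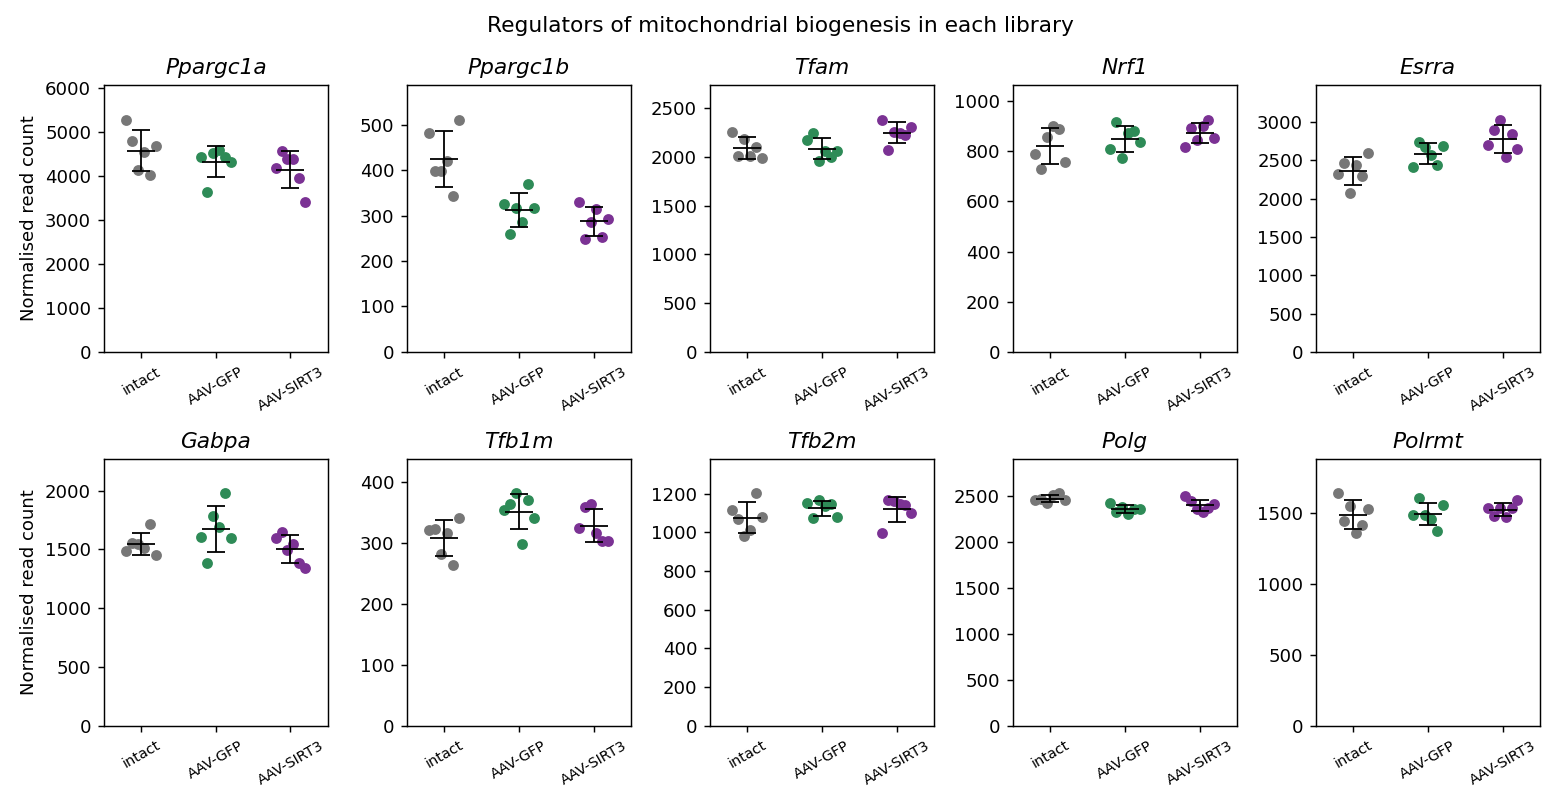
Normalised read count of each regulator in every library, by group, with mean and SD as bars; each vertical axis starts at 0. In the Ppargc1b panel all 6 AAV-SIRT3 libraries lie below all 6 intact libraries, and in the Esrra panel 5 of 6 AAV-SIRT3 libraries lie above the highest intact one.

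Among the coactivators, Ppargc1a is the best-known inducer of mitochondrial biogenesis, responding to cold, exercise and energy stress in other tissues. Its transcript, from chromosome 5 (51454250 to 51567726, minus strand, GRCm38), was 4018, 4615 and 5287 normalised reads in intact (lowest, median and highest), 3634, 4437 and 4592 in AAV-GFP, and 3406, 4291 and 4567 in AAV-SIRT3. The groups overlapped widely, with single low libraries at AAV-GFP replicate 2 (3634) and AAV-SIRT3 replicate 6 (3406). The log2 fold change was -0.06 for AAV-SIRT3 over AAV-GFP (95% interval -0.21 to 0.09), -0.08 for AAV-GFP over intact (-0.23 to 0.07) and -0.14 for AAV-SIRT3 over intact (-0.29 to 0.01). By limma with Benjamini-Hochberg adjustment the p-values were 0.728, 0.590 and 0.171. The same 2 low libraries had the strongest tendency for long transcripts to be low, with a Spearman correlation across genes between transcript length and deviation from the mean of -0.327 and -0.320, against 0.0848 to 0.192 in intact libraries. After trends with length and GC content were removed the values were 0.01, -0.03 and -0.02.

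Ppargc1b, the second coactivator, supports baseline mitochondrial content in many tissues. It lies on chromosome 18 (61298136 to 61400431, minus strand, GRCm38) and hosts the microRNA gene Mir378a in an intron. It was 342, 409 and 511 normalised reads in intact (lowest, median and highest), 259, 316 and 370 in AAV-GFP, and 248, 289 and 330 in AAV-SIRT3. Every AAV-SIRT3 library was below every intact library, which was so for 4.32% of all tested genes, and 5 of 6 AAV-GFP libraries were below the lowest intact library, the other being replicate 5 at 370. The virus groups overlapped each other over most of their range. Against intact tissue the log2 fold change was -0.44 in AAV-GFP (SE 0.104, adjusted p = 0.0335) and -0.56 in AAV-SIRT3 (SE 0.104, adjusted p = 0.00132), by limma with Benjamini-Hochberg adjustment. Both comparisons use the same 6 intact libraries. Between the virus groups the value was -0.12 (95% interval -0.33 to 0.10, adjusted p = 0.619).

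The fall of Ppargc1b in AAV-GFP was close to the threshold. It was not called without intact replicate 1, 3 or 4, without AAV-GFP replicate 2, 3 or 4, or with the 2 groups fitted alone (adjusted p = 0.0558 by limma), with a log2 fold change of -0.39 to -0.51 over all alternatives. With each library's thalamic score added as a covariate it was -0.46 (adjusted p = 0.227 by limma). The fall in AAV-SIRT3 was called under each of the 34 alternative analyses (other scalings, filters, tools, covariates and left-out libraries), at -0.50 to -0.62, including the thalamic covariate (-0.57, adjusted p = 0.0162 by limma) and the fit without intact replicates 1, 3 and 5 (-0.62, adjusted p = 0.0134). Microglial markers were higher and pituitary markers lower in both virus groups than in intact tissue. The pituitary sum over 7 genes was 740 to 5425 in intact libraries, 251 to 698 in AAV-GFP and 239 to 806 in AAV-SIRT3. The part of those cells in the Ppargc1b values was not tested.

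Of the transcription factors that the coactivators dock on, Esrra was the one called. Esrra encodes an orphan nuclear receptor that binds promoters of oxidative genes, and lies on chromosome 19 (6910977 to 6921813, minus strand, GRCm38). It was 2070, 2382 and 2591 normalised reads in intact (lowest, median and highest), 2407, 2620 and 2742 in AAV-GFP, and 2548, 2770 and 3031 in AAV-SIRT3. The AAV-GFP libraries lay between the other groups, and AAV-SIRT3 replicate 4 (2548) was the one library of its group below an intact one. The log2 fold change was 0.23 for AAV-SIRT3 over intact (SE 0.053, adjusted p = 0.00434), with the AAV-SIRT3 library higher in 35 of 36 pairs, by limma with Benjamini-Hochberg adjustment. It was 0.13 for AAV-GFP over intact (adjusted p = 0.182) and 0.10 for AAV-SIRT3 over AAV-GFP (95% interval -0.01 to 0.21, adjusted p = 0.360).

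The Esrra value went with the thalamic score in intact and AAV-SIRT3 tissue but not in AAV-GFP. In AAV-SIRT3, replicates 4 and 6 had the lowest thalamic scores and the lowest Esrra values, 2548 and 2648. In AAV-GFP, replicate 3 had the lowest score but an Esrra value of 2672. The lowest Esrra value of that group was 2407, in replicate 1. The 3 intact libraries with the lowest thalamic scores also held the 3 lowest Esrra values, 2324 in replicate 1, 2070 in replicate 3 and 2291 in replicate 5, against 2441 to 2591 in the other 3. Without them the difference between AAV-SIRT3 and intact tissue was 0.15 (adjusted p = 0.105 by limma), and with the thalamic score as a covariate it was 0.13 (adjusted p = 0.168), so the call was lost both times. Ppargc1b showed no such order, with values of 483, 398 and 342 in the same 3 intact libraries against 399, 420 and 511 in the others. The gene span of Esrra, introns included, also shares 73 bases with that of Trmt112 on the other strand. Trmt112 was itself higher in AAV-SIRT3 than in intact tissue (0.31, adjusted p = 0.00284 by limma) at a mean of 835 normalised reads.

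**Figure D3:**
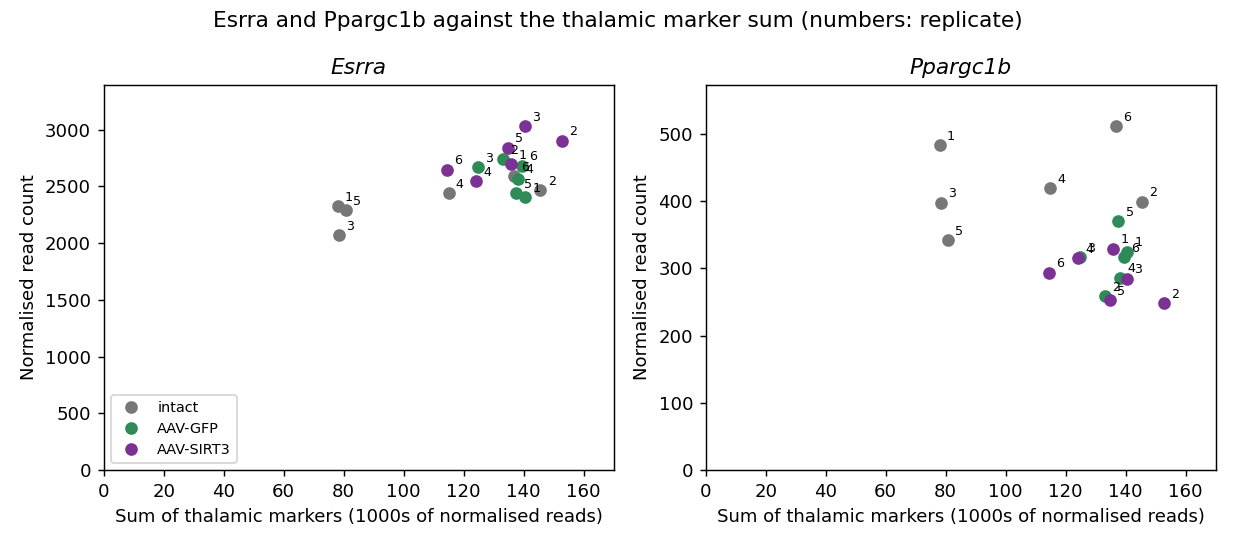
Normalised read count of Esrra (left) and Ppargc1b (right) against the summed count of 14 thalamic markers in each library, numbered by replicate and coloured by group. Intact replicates 1, 3 and 5 lie apart at the lowest sums and have the lowest intact Esrra values (2070 to 2324), while their Ppargc1b values (342 to 483) are all above the highest AAV-SIRT3 value (330).

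Nrf1 and Gabpa were not called. Nrf1, on chromosome 6 (30047988 to 30153458, plus strand), ran from 730 to 902 normalised reads in intact tissue, 773 to 918 in AAV-GFP and 818 to 926 in AAV-SIRT3. Its medians of 824, 855 and 873 differed by less than the range within any group. The log2 fold changes were 0.04, 0.05 and 0.09 for AAV-SIRT3 over AAV-GFP, AAV-GFP over intact and AAV-SIRT3 over intact, with limma and Benjamini-Hochberg adjusted p of 0.788, 0.709 and 0.298. Gabpa, on chromosome 16 (84834925 to 84863779, plus strand), had medians of 1527 in intact tissue, 1649 in AAV-GFP and 1520 in AAV-SIRT3. Its spread was widest in AAV-GFP, from 1385 in replicate 2 to 1975 in replicate 5. AAV-SIRT3 over AAV-GFP gave -0.15 (95% interval -0.30 to -0.01, adjusted p = 0.304 by limma). Against intact tissue Gabpa was at 0.11 in AAV-GFP (adjusted p = 0.409) and -0.04 in AAV-SIRT3 (adjusted p = 0.705), by limma. The gene span of Gabpa, introns included, shares 701 bases with that of Atp5j on the other strand. Atp5j had a mean of 7391 reads against 1573 for Gabpa, so the Gabpa counts are uncertain if exons overlap and strand was not used.

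Tfam, on chromosome 10 (71225464 to 71238280, minus strand), encodes the packaging protein of mitochondrial DNA and is the regulator that came nearest to a difference between the virus groups. It was 1989, 2057 and 2257 normalised reads in intact (lowest, median and highest), 1960, 2064 and 2248 in AAV-GFP, and 2067, 2253 and 2382 in AAV-SIRT3. The AAV-SIRT3 library was the higher in 33 of 36 pairs with AAV-GFP, and 4 of 6 were above the highest AAV-GFP library. The log2 fold change was 0.11 (95% interval 0.02 to 0.20, adjusted p = 0.260 by limma), and no alternative called it. Against intact tissue it was 0.10 in AAV-SIRT3 (adjusted p = 0.103 by limma) and -0.01 in AAV-GFP (adjusted p = 0.964). The former was called, higher, with library weights (0.12, adjusted p = 0.0480), after removal of length and GC trends (0.18, adjusted p = 0.0122) and with the thalamic covariate (0.18, adjusted p = 0.0359). Tfam overlaps no other annotated gene.

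Among the enzymes that act on mitochondrial DNA and RNA, Polg had the tightest values and the one further separation of groups. Polg, on chromosome 7 (79446231 to 79466362, minus strand), was 2425, 2465 and 2532 normalised reads in intact (lowest, median and highest), 2304, 2366 and 2423 in AAV-GFP, and 2333, 2391 and 2500 in AAV-SIRT3. All 6 AAV-GFP libraries were below all 6 intact libraries, with the nearest at 2423 and 2425, and 0.988% of all tested genes were lower in this way. The difference was small, with a log2 fold change of -0.07 (SE 0.031, adjusted p = 0.233 by limma), and was not called. AAV-SIRT3 over intact gave -0.04 (adjusted p = 0.347) and AAV-SIRT3 over AAV-GFP 0.03 (adjusted p = 0.738), by limma.

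Polrmt, on chromosome 10 (79736123 to 79746581, minus strand), ran from 1360 to 1636 normalised reads in intact tissue, 1371 to 1603 in AAV-GFP and 1472 to 1589 in AAV-SIRT3. Its log2 fold changes were 0.03, 0.01 and 0.04, in the order given for Nrf1. Tfb2m, on chromosome 1 (179528055 to 179546267, minus strand), had medians of 1074, 1141 and 1146 in intact, AAV-GFP and AAV-SIRT3, with log2 fold changes of -0.01, 0.07 and 0.06. Every interval of both genes included 0. Both kept an adjusted p of at least 0.464 by limma in every comparison.

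Tfb1m, on chromosome 17 (3519256 to 3557781, minus strand), was the least abundant of the mitochondrial DNA group, at 264 to 341 normalised reads in intact tissue, 299 to 381 in AAV-GFP and 302 to 364 in AAV-SIRT3. In AAV-GFP 4 of 6 libraries were above the highest intact library. The log2 fold change there was 0.19 (95% interval 0.02 to 0.36, adjusted p = 0.207 by limma), and in AAV-SIRT3 over intact it was 0.09 (adjusted p = 0.447). Between the virus groups it was -0.10 (adjusted p = 0.599 by limma). The gene spans of Tfb1m and Tiam2, introns included, overlap on opposite strands over 12089 bases, more than the 3609 bases of Tfb1m exon. Overlap of exons was not measured, and the Tfb1m counts are uncertain if exons overlap and strand was not used.

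As a list, the regulators stood as follows. Between the virus groups 0 were called by limma, edgeR or DESeq2, and 2 (Tfam and Gabpa) had an unadjusted p under 0.05, where 15.2% of all genes did. The calls against intact tissue by edgeR and DESeq2 also numbered 1 and 2. In AAV-GFP against intact 4 of 10 (Ppargc1b, Esrra, Tfb1m and Polg) had an unadjusted p under 0.05, where 19.1% of all genes did, and 1.02% of genes were called lower. In AAV-SIRT3 against intact 3 (Ppargc1b, Tfam and Esrra) did, where 34.9% of all genes did, and 11.3% were called higher and 10.3% lower, so 2 calls in 10 is near the share of all genes. The median log2 fold change over the 10 was 0.009, 0.03 and 0.05 in the 3 comparisons, against -0.004, 0.0007 and -0.005 over all genes tested. Members pointed both ways in each, with 5 positive and 5 negative for AAV-SIRT3 over AAV-GFP and 6 and 4 for the others.

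**Figure D4:**
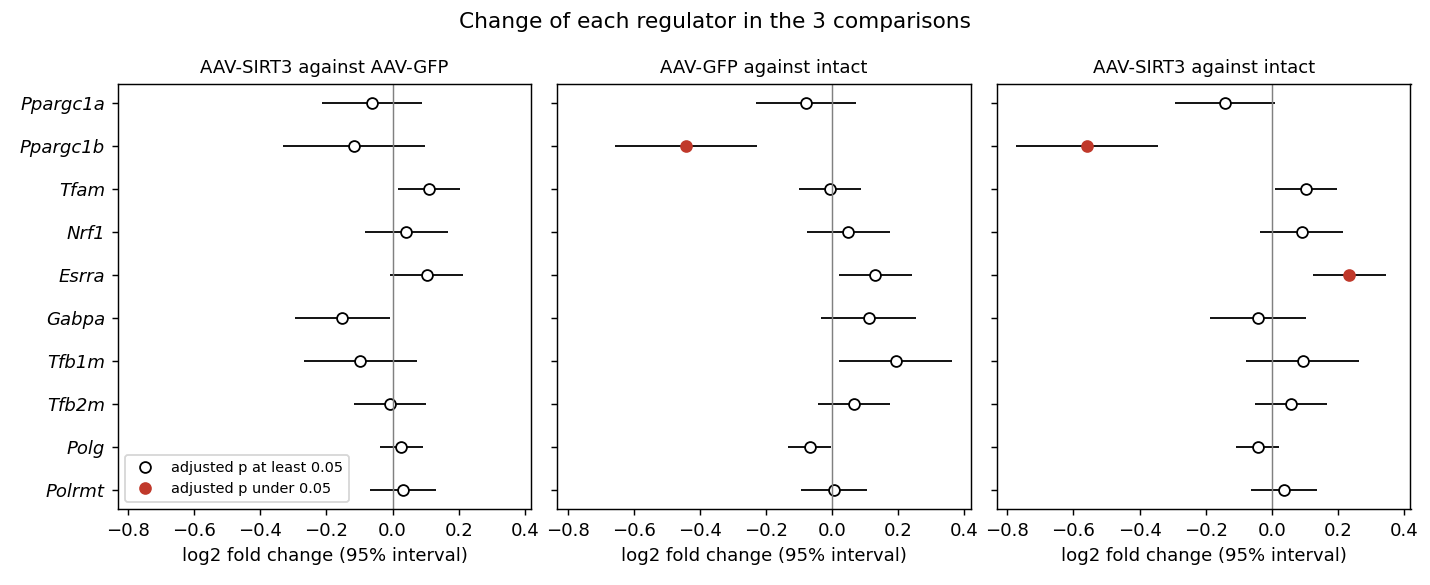
Log2 fold change of each regulator with its 95% interval in the 3 comparisons; filled red points passed the adjusted p of 0.05. Ppargc1b passed against intact tissue in both virus groups (-0.44 and -0.56), Esrra in AAV-SIRT3 against intact (0.23), and no regulator passed between the virus groups.

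The regulators did not vary as one block across the 18 libraries. The correlation between log2 values of Ppargc1a and its nearest regulator, Ppargc1b, was r = 0.55, which ranked 2053 among the 19442 other genes. The genes most like Ppargc1a were Pcdh9 (r = 0.95), a protocadherin, Fam168a (0.93) and Etl4 (0.92). Those most like Esrra were Bmerb1 (0.95), Pigq (0.95), an enzyme of GPI anchor synthesis, and Trnp1 (0.90), with Tfb1m as its nearest regulator (0.53). Tfam was most like Slc25a11 (0.86), the mitochondrial oxoglutarate carrier, Rwdd2a (0.83) and Lfng (0.80), and its nearest regulator was Polrmt (0.63). Spearman coefficients for these genes ran from 0.45 to 0.95. These are descriptions over libraries that differ in group and in cell type markers. A shared difference between groups or in tissue composition therefore enters each of them.

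The DNA sequence around the RefSeq start sites was read for motifs of the 3 factors. Several of these genes are themselves known targets of NRF-1 and GABP. RefSeq windows of 300 bases (250 before to 50 after the start, GRCm38.p6) were matched for 9 of the 10 genes and for Sirt3. Ppargc1b had no window. The letters CCGGAAG, the core bound by GABP, were found on either strand in 4 of 9 regulators, Tfam, Gabpa, Polg and Polrmt, and in 8.86% of all 32851 windows. They lay 47 bases upstream of the RefSeq start in Tfam, 93 in Gabpa, 38 in Polg and 43 in Polrmt. The GENCODE spans given above begin further upstream for Tfam, Gabpa and Polg. By those spans the letters of these genes lie inside the gene. Sirt3 held the same letters 85 bases upstream. The stretches are shown 5′ to 3′ on the strand that reads CCGGAAG, in capitals, so that the bases flanking the shared core can be compared.
Tfam chr10:71238073-71238102, minus strand: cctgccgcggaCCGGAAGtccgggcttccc
Gabpa chr16:84835019-84835048, minus strand: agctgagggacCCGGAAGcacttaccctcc
Polg chr7:79466293-79466322, minus strand: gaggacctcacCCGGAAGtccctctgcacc
Polrmt chr10:79746607-79746636, plus strand: ttctgcgactgCCGGAAGcgctcttagggt
Sirt3 chr7:140882377-140882406, plus strand: cgcccgcggtgCCGGAAGtgagcgagcact

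Of the other motifs, the core of the NRF-1 site (GCGCA and GCGC with any base between them) was found on either strand in 1 of 9 regulators (Polrmt, in 2 overlapping matches at its start) and in 4.60% of all windows. The ERR half-site AAGGTCA was found in 0 of 9 and in 4.72% of all windows. Among the nuclear target genes described below, 20 of 28 had a window, and the GABP, NRF-1 and ERR letters were in 6, 5 and 2 of them. A match is a description of the letters and not a bound site. The 4 regulators that share the GABP core are among the 8 that limma called in no comparison. Of the called regulators, Ppargc1b had no window and Esrra had one without these letters. The motif therefore cannot be compared between called and uncalled regulators.

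The partners and upstream inputs of the PGC-1 axis, a list of 30 genes, held the one pathway gene called between the virus groups. This was Gabpb2, a beta subunit that pairs with GABPA and carries its activation domain. Its mean was 1566 normalised reads in intact tissue, 1466 in AAV-GFP and 1204 in AAV-SIRT3. The log2 fold change of AAV-SIRT3 over AAV-GFP was -0.28 (adjusted p = 0.0168 by limma), and the call was kept in 27 of 34 alternatives. It was lost with the 2 groups fitted alone (adjusted p = 0.0574), with replicate numbers as a block (adjusted p = 0.0513), without intact replicate 2 and AAV-GFP replicate 5 together (adjusted p = 0.0900), and without AAV-GFP replicate 1, 3 or 5 or AAV-SIRT3 replicate 5, by limma. The other beta subunit gene, Gabpb1, was at 0.03 (adjusted p = 0.859); it is named here after its value was seen.

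In AAV-GFP against intact tissue 0 of the 30 partners and inputs were called by limma, with 6 at an unadjusted p under 0.05, where 19.1% of all genes were. There 0 of the 30 were called by edgeR and 2 by DESeq2, which called 999 of all tested genes. In AAV-SIRT3 against intact tissue limma called 2 higher and 3 lower, where 11.3% of all tested genes were called higher and 10.3% lower. The share of the 30 called by limma was thus below that of all genes. By edgeR (7 of the 30, 4086 of all 19443 genes) and DESeq2 (8 and 4617) it was not. An unadjusted limma p under 0.05 was found for 14 of the 30 and 34.9% of all genes. Gabpb2 fell by 0.38 on the log2 scale (adjusted p = 1.9e-04 by limma, as below), and this held in all 34 alternatives. Sp1, a general activator of GC-rich promoters, fell by 0.23 (adjusted p = 0.00841), and Sirt1, the nuclear deacetylase that acts on PGC-1alpha, fell by 0.14 (adjusted p = 0.0443, called in 14 of 34 alternatives). Zfp746, also called PARIS, a repressor of Ppargc1a and a substrate of parkin, rose by 0.20 (adjusted p = 0.00284). The fifth was the acetyltransferase Kat2a (0.12, adjusted p = 0.0389), which acetylates PGC-1alpha and is named after its value was seen. After removal of length and GC trends 7 were higher and 1 was lower, with Sp1 at -0.09 (adjusted p = 0.122) and Sirt1 at -0.06 (adjusted p = 0.369), so both lost their calls. The median of the list was -0.012, against -0.005 over all genes.

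Factors that maintain and transcribe mitochondrial DNA, beyond the 10 regulators, numbered 24 tested of 25. Between the virus groups 0 were called by limma, edgeR or DESeq2, with 4 at an unadjusted p under 0.05, where 15.2% of all genes were. AAV-GFP against intact also called 0 by limma and edgeR, with 5 at an unadjusted p under 0.05, where 19.1% of all genes were. DESeq2 called 1 of the 24 there, and 999 of all tested genes. Relative to intact tissue AAV-SIRT3 had 3 higher and 3 lower of the 24, near the 21.7% of all tested genes that were called. Mrpl12, a ribosomal protein that also binds POLRMT, rose by 0.32, and Slc25a33, a pyrimidine nucleotide carrier, rose by 0.26. Top3a, a topoisomerase that separates newly copied mitochondrial DNA, fell by 0.27, and Lig3, the mitochondrial DNA ligase, fell by 0.20. The adjusted p-values were 0.00100, 0.00172, 0.0110 and 0.00512 by limma. The others were Mterf3, higher, and Lrpprc, lower. With length and GC trends removed 5 were higher and 1 lower, and Lig3 was at -0.10 (adjusted p = 0.116).

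Of 25 factors for mitochondrial RNA processing and translation, 0 were called between the virus groups by limma, 0 by edgeR and 1 by DESeq2, which called 311 of all tested genes. There 3 of the 25 had an unadjusted p under 0.05, where 15.2% of all genes did. In AAV-GFP against intact 0 were called by limma, edgeR or DESeq2, with 2 at an unadjusted p under 0.05, where 19.1% of all genes were. The comparison of AAV-SIRT3 with intact called 4 of 25, each of them higher, where 21.7% of all tested genes were called and 11.3% higher. These were Mrm2, a ribosomal RNA methyltransferase (0.29), Hsd17b10, a subunit of mitochondrial RNase P (0.25), Ptcd2, a pentatricopeptide RNA-binding protein (0.18), and the elongation factor Tufm (0.16). Their adjusted p-values were 0.00714, 0.00580, 0.0284 and 0.0411 by limma. With the thalamic covariate, and without intact replicates 1, 3 and 5, 1 was higher in each. Hsd17b10 was called under all 34 alternatives, Mrm2 under 32, Ptcd2 under 23 and Tufm under 19. With 1 library left out, Ptcd2 kept its call in 11 of 18 fits and Tufm in 10 of 18.

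The nuclear target genes of the regulators, 28 genes mostly for respiratory chain subunits, protein import and the citric acid cycle, had the largest share called of the lists tied to the regulators with over 5 genes. Of these, 13 of 28 were called in AAV-SIRT3 against intact tissue, each of them higher, where 11.3% of all genes were. Cox5b and Cox6c, subunits of cytochrome c oxidase, rose by 0.40 and 0.34. Uqcrb, a subunit of the cytochrome bc1 complex, rose by 0.36, and Atp5o, a stalk subunit of ATP synthase, by 0.33. The 4 adjusted p-values were 4.6e-04, 9.8e-04, 1.6e-04 and 0.00165 by limma, and all 4 were called under each of the 34 alternatives. The citric acid cycle enzyme genes Cs (0.02) and Sdha (0.03) on the same list were not called and are named after their values were seen. The median of the list was 0.11.

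The size of that group was 10 to 16 genes over the alternatives, with 10 under the thalamic covariate, 10 without intact replicates 1, 3 and 5, and 16 after removal of length and GC trends. The length trend of the AAV-SIRT3 libraries (-0.320 to -0.014) did not overlap that of the intact libraries (0.0848 to 0.192). In AAV-GFP against intact 1 of 28 was called, Uqcrb (0.18, adjusted p = 0.0387 by limma), which lost its call in 8 of 18 fits that left out 1 library, with 0.15 (adjusted p = 0.0878) without AAV-GFP replicate 2. Between the virus groups 0 of 28 were called by limma, with 11 at an unadjusted p under 0.05, where 15.2% of all genes were. Of the 28, 0 were called by edgeR and 2 by DESeq2, which called 311 of all tested genes. There 25 of 28 had a positive log2 fold change and the median was 0.08. Without AAV-GFP replicate 2, whose length trend was the lowest of all libraries, 8 were called higher, and 861 genes in all in place of 22.

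**Figure D5:**
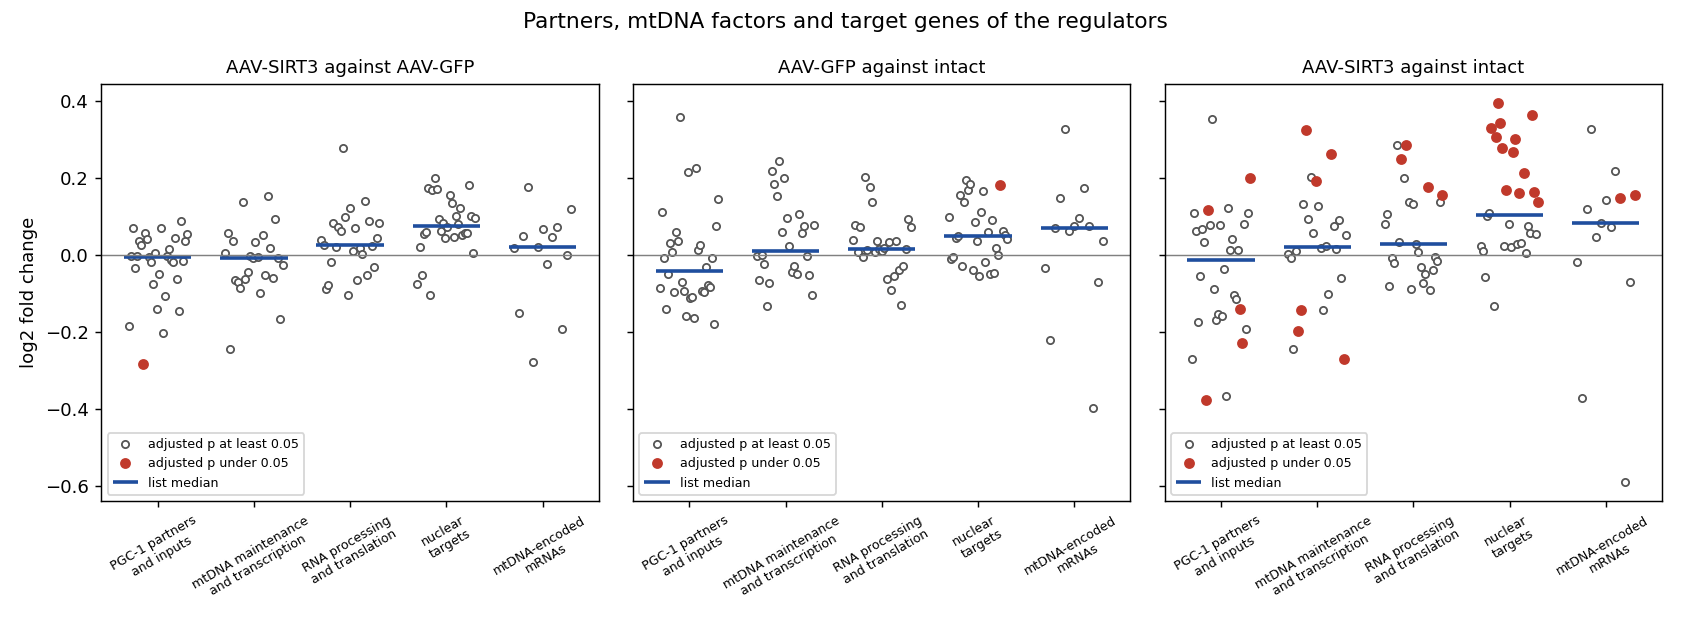
Log2 fold change of each gene in 5 lists tied to the regulators, in the 3 comparisons; filled red points passed the adjusted p of 0.05 and blue bars mark list medians. In AAV-SIRT3 against intact 13 of 28 nuclear target genes passed, each of them higher, while between the virus groups Gabpb2 was the one gene that passed.

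Transcripts made from mitochondrial DNA itself, the product of Tfam, Tfb2m and Polrmt, took 7.13% to 7.83% of reads in intact libraries, 7.56% to 8.43% in AAV-GFP and 7.81% to 8.58% in AAV-SIRT3. Of the 13 mRNAs, 0 were called between the virus groups or in AAV-GFP against intact by limma, edgeR or DESeq2. In these 2 comparisons 1 and 0 had an unadjusted p under 0.05, where 15.2% and 19.1% of all genes did. In AAV-SIRT3 against intact 2 of 13 were called, where 21.7% of all tested genes were. These were mt-Nd6 (0.16, adjusted p = 0.0382) and mt-Nd4 (0.15, adjusted p = 0.0429), subunits of complex I, both higher by limma. Neither was called with replicate numbers as a block, with the thalamic covariate, without intact replicates 1, 3 and 5, or without intact replicate 4 or AAV-SIRT3 replicate 2, 3 or 5. Some of the 13 had few reads, such as mt-Atp8 with 354 in AAV-SIRT3 against 1484629 for mt-Co1. Reads from near-identical nuclear copies and from overlapping mitochondrial genes cannot be assigned with certainty.

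Last, 4 neuronal genes known to depend on PGC-1alpha in forebrain interneurons were measured. Pvalb, the calcium buffer parvalbumin, averaged 4356 normalised reads in intact tissue, 4674 in AAV-GFP and 5882 in AAV-SIRT3. It rose by 0.43 in AAV-SIRT3 against intact (adjusted p = 8.4e-04 by limma), under all 34 alternatives, and was at 0.33 against AAV-GFP (adjusted p = 0.0708), where 6 of 34 alternatives called it. The other 3 genes were not called in any comparison. Syt2, a calcium sensor of fast synapses, was at -0.25 against intact in AAV-SIRT3 and -0.38 in AAV-GFP (adjusted p = 0.113 and 0.0732 by limma). The value in AAV-GFP was called in 1 of 34 alternatives, without intact replicate 2 (-0.44, adjusted p = 0.0405 by limma). Cplx1 and Nefh were within 0.10 of 0 in each comparison. Pvalb is also one of 7 GABAergic markers. In AAV-SIRT3 against intact 2 of the 7 were called, Pvalb and Foxp1 (0.21, adjusted p = 0.0281 by limma, named after its value was seen), while Gad1 (0.02) and Gad2 (-0.16) were not. Between the virus groups all 7 log2 fold changes were positive, with a median of 0.16. Gad1, Slc32a1 and Pvalb had an unadjusted p under 0.05, where 15.2% of all genes did. The part of GABAergic cell content in the Pvalb values was not tested.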

How the data were processed

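Poly-A RNA was sequenced from substantia nigra as stranded paired-end libraries, per the labels' protocols, with 6 mice in each of 3 groups. The submitters' processing notes name HISAT2 2.1.0, DESeq2 1.34.0 and the mm10 build, without role or order. The deposited signal values are normalised read counts per gene: dividing out one size factor per library returned whole reads for 100% of values, within a tolerance of 1e-06 reads. The factors of intact replicate 4 and AAV-SIRT3 replicate 4 are near 1, so the check is weaker for those 2. Whether the authors' counting used strand is not given in the sources used here. From these values log2(value + 1) was fitted with limma 3.58.1 (R 4.3.3, trend, one fit of 3 groups, 15 residual degrees of freedom) over 19443 genes, with Benjamini-Hochberg adjustment per comparison. The comparisons share groups, so their values are given side by side only. A p-value measures the spread between mice. Within groups no 2 libraries agreed within sampling noise, with chi-square per degree of freedom of 8.27 to 36.6.

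Alternatives were TMM scaling, pseudocounts of 0.5 and 10, filters (all genes above 0, a mean over 50 or equal to it), the recovered reads in edgeR 4.0.16 and in DESeq2 1.42.0, a fit of 2 groups, a replicate block, array weights, robust variances, a thalamic covariate, removal of length and GC trends, and leaving out each library. Leaving out intact replicates 1, 3 and 5, intact replicate 2 with AAV-GFP replicate 5, or AAV-GFP replicate 2 with AAV-SIRT3 replicate 6 was added after seeing the data. Positions and lengths are from GENCODE M21 (GRCm38) and promoters from RefSeq (GRCm38.p6). On simulated data with 200 changed genes limma recovered 158, with 4 false calls. The planted changes ranged up to sizes well above those of the regulators, so that recovery does not apply to differences as small as theirs. The regulators and Sirt3 are named in every comparison, with up to 4 called genes of largest change per pathway list, all genes of lists of 5 or fewer, and the 3 genes most correlated with Ppargc1a, Esrra and Tfam. The members and lists were chosen with earlier results of these data known. Results for some genes are not reported here.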

Additional observations from a re-analysis of the deposited data

Results flagged for a closer look

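Within groups of 6, 5 of 63 sets of values held a library far from the rest (a gap to its nearest neighbour beyond Dixon's 95% critical value, which chance gives in about 1 in 20 sets). Ppargc1a in AAV-GFP replicate 2 was the lowest of its group at 3634 normalised reads, with the next at 4330. The choroid plexus marker sum was 51220 in intact replicate 2 (next 5999) and 45269 in AAV-GFP replicate 5 (next 1904). The oligodendrocyte marker sum was 1004739 in intact replicate 1 (next 871633) and 975942 in AAV-GFP replicate 3 (next 895776). With AAV-GFP replicate 2 and AAV-SIRT3 replicate 6 left out, Ppargc1a in AAV-SIRT3 over intact was -0.09 (adjusted p = 0.301 by limma), against -0.14 with them.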

How the results depend on the processing

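Ppargc1b in AAV-SIRT3 against intact was called under all 34 alternatives, and 0 regulators were called between the virus groups under any of them. In AAV-GFP against intact the count of 1 became 0 with all genes above 0, the fit of 2 groups, the thalamic covariate, intact replicates 1, 3 and 5 left out, and AAV-GFP replicate 2 with AAV-SIRT3 replicate 6 left out, and was 0 to 1 with each library left out. In AAV-SIRT3 against intact the count of 2 became 1 without intact replicates 1, 3 and 5. It became 3, with Tfam added, under array weights and after removal of length and GC trends, and stayed 2 with the thalamic covariate, where Tfam was called in place of Esrra. Sirt3 in AAV-SIRT3 over AAV-GFP was 0.11 to 0.15 with each library left out. The cause was not tested for any of these.

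Values near 0 changed sign, none of them called. After removal of length and GC trends Ppargc1a (0.0104) and Tfb2m (0.0332) in AAV-SIRT3 over AAV-GFP, Tfam in AAV-GFP over intact (0.0160), and Gabpa (0.0557) and Polg (0.0540) in AAV-SIRT3 over intact became positive. With the thalamic covariate Tfam (0.0699) and Cplx1 (0.00104) in AAV-GFP over intact became positive and Tfb1m in AAV-SIRT3 over intact negative (-0.00575). Without intact replicates 1, 3 and 5 Tfam (0.0557) and Cplx1 (0.00190) became positive, and Cplx1 also with array weights (0.0262) and without intact replicate 2 and AAV-GFP replicate 5 (0.00963), where Nefh between the virus groups was -0.0140. In AAV-GFP over intact Polrmt and Nefh were -0.000677 and -0.00515 by edgeR, and -0.0149 and -0.0111 without AAV-GFP replicate 2 and AAV-SIRT3 replicate 6. With each library left out, the ranges that crossed 0 were -0.0407 to 0.0502 (Cplx1), -0.0343 to 0.124 (Nefh), -0.0191 to 0.0343 (Polrmt) and -0.0275 to 0.0167 (Tfam) in AAV-GFP over intact, -0.0260 to 0.0638 (Nefh) and -0.0211 to 0.0246 (Tfb2m) between the virus groups, and -0.0213 to 0.138 (Nefh) in AAV-SIRT3 over intact.

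Over all genes, the 22 calls between the virus groups ranged from 5 without AAV-SIRT3 replicate 5 to 861 without AAV-GFP replicate 2, and were 311 by DESeq2. The 358 in AAV-GFP against intact were 10 without intact replicates 1, 3 and 5 and 999 by DESeq2, and the 4214 in AAV-SIRT3 against intact were 1686 to 4926. Replicate numbers did not pair the libraries (deviations of same-numbered libraries correlated at -0.10 to 0.18, and 1 of 18 libraries was closest to its own number). With the replicate block Ppargc1b in AAV-GFP against intact had an adjusted p of 0.0299 by limma and Gabpb2 between the virus groups 0.0513, with 13, 372 and 3923 genes called in the 3 comparisons. Ppargc1b and Tfb1m, with the fewest reads, had the widest intervals of the regulators. Where an interval included 0, the difference could not be told apart from 0, and differences as large as its ends remain possible.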
